A study of Mus musculus with 9 samples.

Results

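Fully grown oocytes live on mRNAs that they made during growth and kept silent, and 10 genes whose products pack, mask and reactivate those mRNAs were followed here in growing mouse oocytes with 3 sex chromosome complements. The genes were Cpeb1, Dazl, Ybx2, Zar1, Zar1l, Lsm14b, Patl2, Eif4enif1, Eif4e1b and Pabpc1l, chosen by symbol for the role of their products. The choice was made with earlier results of these data known. All 10 were among the 28052 genes of the deposited matrices and all passed the filter on low counts that left 10993 genes to test. RNA came from 9 pools of 30 oocytes, 10 of them 50 to 55 µm and 20 of them 55 to 60 µm in diameter, taken at 18 dpp, with 3 pools each of XX, XO and XY females. All pools carry the strain label C57BL/6. XY females and their XX littermates were offspring of B6.Y TIR males and B6 females, whereas XO females were offspring of Paf carrier males, a stock of C3H/HeSnJ origin backcrossed to B6. Genotype and parental stock therefore cannot be told apart in comparisons with XO. The pools are named as biological triplicates, and how many females gave the oocytes of a pool is not given in the sources used here.

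A growing oocyte keeps much of its new mRNA untranslated, with a short poly(A) tail and bound in ribonucleoprotein particles. CPEB1 binds the cytoplasmic polyadenylation element (CPE) near the 3′ end and links its targets both to repressors at the cap and to the enzymes that later lengthen the tail. DAZL promotes the translation of its targets during maturation. YBX2, also called MSY2, coats mRNA, ZAR1 and ZAR1L hold maternal mRNA in the ooplasm, and LSM14B and PATL2 belong to repressive RNA-protein complexes. The 4E-T protein, product of Eif4enif1, and EIF4E1B, an oocyte form of the cap-binding factor, keep caps away from the initiation machinery. PABPC1L, also called ePAB, binds poly(A) tails in oocytes and early embryos.

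The letters through which CPEB1 acts can be searched for in the stored mRNAs themselves. The last 100 bases of the 3′ untranslated region of the longest coding Gencode vM21 transcript (GRCm38) were searched on the sense strand for TTTTAT and TTTTAAT. A match was found in 8 of 15 transcripts that are known for translational control in oocytes, in 1 of the 9 machinery genes whose region was long enough, and in 20.9% of the 8377 tested genes that could be searched. The stored transcripts without a match were Mos, Ccnb1, Ccnb2, Tpx2, Cnot6l, Dcp2 and Tex19.1. A match describes letters and is not a functional site. Lack of a match does not mean lack of a CPE. Other transcripts, bases further upstream and other forms of the element were not searched. Windows of 30 bases are shown with the match in capitals for Ybx2, the machinery gene with a match, and for the stored transcripts with a match that were called between genotypes.
Ybx2, chr11:69941534-69941563, plus strand: tctgaagccaTTTTATgaactgtcatgtgc
Plat, chr8:22782746-22782775, plus strand: tatatttataTTTTAATctattttagtttt
Btg4, chr9:51119799-51119828, plus strand: ataaatccctTTTTATgtctttttaaaagt
Orc6, chr8:85308249-85308278, plus strand: tcaagcccaataaatgttatTTTTATatgc
Gdf9, chr11:53437856-53437885, plus strand: agtgctgtggTTTTATgtgacggaagaata
H1foo, chr6:115950159-115950188, plus strand: attctgaagcTTTTATtgtctaataagctg
The match begins 89 bases from the transcript end in Plat, 68 in H1foo, 67 in Btg4, 62 in Ybx2, 39 in Gdf9 and 10 in Orc6. In Gdf9, H1foo and Plat it lies upstream of the polyadenylation hexamer AATAAA or ATTAAA, and in Orc6 downstream of it.

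Libraries were made by Smart-seq3, which tags the 5′ end of each molecule with a unique molecular identifier (UMI), and held 2130145 to 3157338 gene UMIs. Levels are given as normalized CPM, the UMI count scaled to the gene total (CPM, counts per 1e6) and divided by a factor from ERCC spike-in RNAs. That factor was 1.13, 1.17 and 1.25 in the XX pools and 0.837, 0.847 and 0.703 in the XO pools. In the XY pools it was 1.01, 1.16 and 1.05. With these factors the median log2 fold change of all tested genes was -0.46 for XX against XO, -0.19 for XX against XY and -0.30 for XY against XO, and with trimmed means of the gene counts (TMM) it was -0.11, -0.0053 and -0.13. The pool XO1 stood apart. Of 10 oocyte markers, 6 were lowest of all pools in XO1, among them the zona pellucida gene Zp2 at 4919 normalized CPM where the other pools held 10049 to 17149.8, whereas Oosp1 was highest there, at 9137 against 2225 to 5572. Of 12 granulosa cell markers 8 were in the matrix, Amh, Foxl2, Inhbb and Hsd17b1 being the others, and their summed level ran from 59.2 to 84.4 in XX, 73.5 to 130.4 in XO and 67.7 to 121 among XY pools, with 1 UMI of Inha and 1 of Fst in all pools together. Of the 4 tested, Kitl was called higher in XX than in XO, at 1.09 ± 0.31, and Serpine2 lower, at -1.46 ± 0.54 (edgeR, adjusted p = 0.203 and 0.229). Of 5 markers of endothelium, blood and immune cells 2 were in the matrix, Hba-a1, Hbb-bs and Ptprc being the others. The endothelial marker Pecam1 was at 31.0, 18.6 and 48.4 normalized CPM in the XX pools, 14.5, 109 and 132 in the XO pools and 21.8, 31.9 and 56.7 in the XY pools, with XO2 and XO3 highest and XO1 lowest. Cdh5, also endothelial, went another way, with means of 0.996 in XX, 0.878 in XO and 2.94 in XY. It had 37 UMIs in all pools together and did not pass the filter. The part of other cells in the results was not tested. In pools of cells, fewer cells of a type and less RNA per cell cannot be told apart. The 10 genes together took 0.0639 to 0.0865% of the gene UMIs of a pool.

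Cpeb1 was the 1 gene of the 10 whose difference between genotypes passed the threshold, and it was lower in XX and in XY than in XO oocytes. The gene lies at chr7:81347026-81455465 on the minus strand (GRCm38, Gencode vM21, as for the genes that follow). Its level was 99.7, 91.0 and 85.3 normalized CPM in the XX pools, 167, 138 and 194 in the XO pools and 109.7, 79.4 and 109 in the XY pools, from 236 to 362 UMIs a pool. Every XO pool lay above every XX and every XY pool, while XX and XY pools overlapped. Means were 92.0 ± 7.27 in XX, 166 ± 28.3 in XO and 99.5 ± 17.4 for XY (SD, n = 3 each). The log2 fold change was -0.85 ± 0.27 (SE) for XX against XO by the quasi-likelihood F test of edgeR (unadjusted p = 0.0112, Benjamini-Hochberg adjusted p = 0.203). For XY against XO it was -0.74 ± 0.27 (edgeR, unadjusted p = 0.0222, adjusted p = 0.485). Both comparisons use the same XO pools. Calls here are made at an unadjusted p of 0.05, and neither value passed after adjustment.

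Relative to the median of all genes, the Cpeb1 differences were -0.39 and -0.44. With TMM factors they were -0.49 ± 0.26 (edgeR, unadjusted p = 0.0873, adjusted p = 0.478) and -0.57 ± 0.26 (edgeR, unadjusted p = 0.0528, adjusted p = 0.545), short of the threshold, with XO pools still above all others. The call against XX held in all 9 fits that left out 1 pool each, and the call against XY was lost without XO3, at -0.61, and without XY2, at -0.60. With sva covariates Cpeb1 was at -0.32 for XX against XO and was no longer called, and at -0.51 for XY against XO, where it was. With only the 6 XY and XO pools in the fit Cpeb1 was not called against XO, beside 5.24% of all genes called, and with the replicate number as block for XX against XO it was called with Eif4enif1, beside 23.0%.

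One called gene in 10 was near the share of all genes called. Of all tested genes, 16.7% were called lower and 1.40% higher in XX than in XO oocytes, and 8.24% were called lower and 1.69% higher in XY than in XO oocytes. The paper, which used limma with sva covariates, instead reported many autosomal genes as lower in XO than in XX and XY oocytes. Groups that did not overlap made up 13.6% of genes with XX lower and 2.79% with XX higher than XO, and 6.34% with XY lower and 3.88% with XY higher than XO. With TMM factors 0 of 10 genes were called by edgeR in any comparison, beside 12.2% of all genes in either direction for XX against XO, 5.14% for XX against XY and 9.01% for XY against XO.

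Between XX and XY oocytes none of the 10 genes was called by edgeR or DESeq2 without covariates at an unadjusted p of 0.05, and none of the 10 had groups apart. With sva covariates Eif4e1b was called higher in XX, at 0.45 (edgeR, unadjusted p = 0.0296). Among all genes 4.39% were called lower and 1.41% higher in XX, and 11.7% lay lower and 4.15% higher in XX without overlap. The log2 fold changes of the 10 genes ran from -0.22 ± 0.37 for Dazl to 0.28 ± 0.70 for Pabpc1l. Their median was -0.44 for XX against XO, -0.0043 for XX against XY and -0.39 for XY against XO, beside the all-gene medians of -0.46, -0.19 and -0.30.

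**Figure D1:**
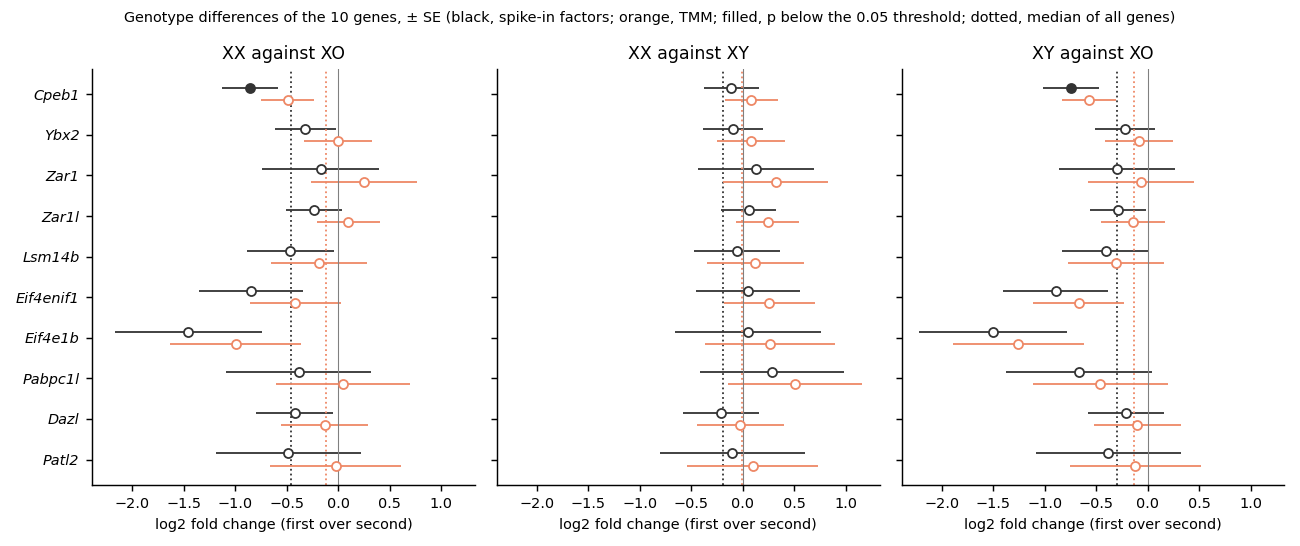
Log2 fold changes (x axis, first genotype over second) of the 10 genes with their SE from edgeR for spike-in and TMM factors, with filled points where the unadjusted p passed 0.05 and a dotted line at the median of all genes. Cpeb1 has the filled points, at -0.85 and -0.74 with spike-in factors.

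Eif4e1b, the gene of the oocyte cap-binding protein, had the largest fold differences of the 10 in the comparisons with XO, and they did not pass the threshold by edgeR. Its level was 38.5, 28.0 and 62.8 normalized CPM in the XX pools, 21.7, 129 and 204 in the XO pools and 26.0, 28.6 and 70.0 in the XY pools. XO1 was the lowest of all 9 pools, and XO2 and XO3 were the highest. The log2 fold change was -1.45 ± 0.71 for XX against XO (edgeR, unadjusted p = 0.0705, adjusted p = 0.302) and -1.50 ± 0.72 for XY against XO (edgeR, unadjusted p = 0.0634, adjusted p = 0.512). DESeq2 called Eif4e1b in both, at unadjusted p of 0.0494 and 0.0422, so that with Cpeb1 it called 2 of the 10 genes beside 21.2% and 12.0% of all genes. Without the filter on low counts edgeR called Eif4e1b in both and Eif4enif1 for XY against XO, but not Cpeb1, beside 14.1% and 9.75% of all genes. Eif4enif1 was at 59.8, 62.0 and 116 normalized CPM in the XX pools, 60.1, 161 and 205 in the XO pools and 51.6, 62.2 and 116 in the XY pools. The gene lies at chr11:3202392-3244588 and Eif4e1b at chr13:54783998-54788459, both on the plus strand. XO2 and XO3 were again the highest, and XO1 was among the XX and XY pools. Its log2 fold changes were -0.84 ± 0.51 for XX against XO and -0.89 ± 0.51 for XY against XO (edgeR, adjusted p = 0.378 and 0.545).

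These values turned on single pools, above all on XO1. Without XO1, 4 genes were called lower in XX than in XO oocytes, Cpeb1 with Eif4e1b at -1.95, Eif4enif1 at -1.21 and Patl2 at -0.99, beside 36.9% of all genes called in either direction. For XY against XO 3 genes were called, Cpeb1 with Eif4e1b at -1.99 and Eif4enif1 at -1.26, beside 32.1% of all genes. Leaving out XY1 as well, a choice made after seeing the data, gave 5 calls for XX against XO, Zar1 being the added one at -0.60, and 3 for XY against XO, beside 41.7% and 27.8% of all genes. The share of the 10 genes again lay near that of all genes. Without XO3, Eif4e1b was at -0.80 for XX against XO and -0.85 for XY against XO, and was not called. Without XY3 it was called for XY against XO at -2.11, with Eif4enif1 at -1.32 and Cpeb1, beside 13.1% of all genes.

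XO and XY pools of the same number deviated together from their genotype means, with correlations across genes of 0.830, 0.278 and 0.773 for numbers 1, 2 and 3. When that number entered the fit as a block, 4 of the 10 genes were called lower in XY than in XO oocytes, Cpeb1 at -0.74, Eif4enif1 at -0.85, Eif4e1b at -1.37 and Pabpc1l at -0.78, beside 16.6% of all genes in either direction. With the block and TMM factors together, chosen after seeing the data, Cpeb1, Eif4enif1 and Eif4e1b were called, at -0.56, -0.64 and -1.13, beside 15.9% of all genes.

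Patl2 had a direction that depended on how batches were handled. Its level was 93.3, 70.4 and 110.3 normalized CPM in the XX pools, 19.7, 156 and 207 in the XO pools and 50.7, 88.2 and 155 in the XY pools. The gene lies at chr2:122120108-122186189 on the minus strand, and B2m, which overlaps it on the other strand, shares no exon base with it. XO1, with 38 UMIs, was the lowest of all pools and XO3 the highest. The log2 fold change was -0.48 ± 0.70 for XX against XO and -0.38 ± 0.70 for XY against XO, within the spread of the pools (edgeR, adjusted p = 0.716 and 0.841). With 2 surrogate variables of sva as covariates, Patl2 was called higher in XX than in XO, at 0.77 (edgeR, unadjusted p = 0.00371), and higher in XY than in XO, at 0.61 (edgeR, unadjusted p = 0.00224). In that fit 1 of the 10 genes was called for XX against XO and 4 for XY against XO, beside 16.5% and 23.0% of all genes. Besides Patl2, the fit called Cpeb1, Eif4enif1 and Eif4e1b for XY against XO. These were lower in XY, at -0.51, -0.45 and -0.42 (edgeR, unadjusted p = 0.00220, 0.0293 and 0.0413).

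In the log2 matrix from which the authors had regressed batch effects, Patl2 was 7.04 ± 0.145 in XX, 5.48 ± 0.259 in XO and 6.90 ± 0.182 for XY (SD, n = 3 each), so that XO was the lowest and not the highest genotype. For XX against XO 7 of the 10 genes were above 0 in that matrix, beside 69.7% of all tested genes. For XY against XO 6 were above 0, beside 72.0% of all tested genes, so the counts lay near those shares. By edgeR with spike-in factors all 10 were below 0 in both comparisons. For XX against XO and XY against XO in turn, Zar1 was at 1.32 and 0.92 and Pabpc1l at 0.83 and 0.27. Eif4e1b was at 0.43 and 0.19 and Eif4enif1 at 0.37 and 0.17, so the XO-high differences of Eif4e1b and Eif4enif1 changed sign. Cpeb1 kept its direction at -0.29 and -0.33. These differences were not tested. The median of all genes in that matrix was 0.28 for XX against XO and 0.32 for XY against XO. For XY against XO, Eif4e1b and Eif4enif1 lay below that median.

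Lsm14b, the other gene of the repressive complexes, was high in XO1, where Patl2 was low. Its level was 121, 86.5 and 65.8 normalized CPM in the XX pools, 207, 76.0 and 93.7 in the XO pools and 118, 76.8 and 89.4 in the XY pools. The gene lies at chr2:180024987-180035465 on the plus strand. XO1 was the highest of all 9 pools and the rest overlapped between genotypes. The log2 fold change of XX against XO was -0.46 ± 0.42 (edgeR, adjusted p = 0.555) and turned to 0.10 without XO1.

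The mRNA-binding genes Dazl and Ybx2 also had their highest level in XO1. Dazl was at 153, 146 and 129 normalized CPM in the XX pools, 293, 141 and 140.0 in the XO pools and 218, 125 and 153 in the XY pools. The gene lies at chr17:50279395-50293636 on the minus strand, and Ybx2 at chr11:69935796-69941605 on the plus strand. Apart from XO1 and XY1 the Dazl levels lay between 125 and 153, and the log2 fold change of XX against XO moved from -0.42 ± 0.37 to 0.020 without XO1. Ybx2 was at 20.7, 15.4 and 17.1 normalized CPM in the XX pools, 29.5, 18.6 and 18.1 in the XO pools and 20.9, 17.3 and 18.7 in the XY pools. The groups overlapped, with means of 17.7 ± 2.69 in XX, 22.1 ± 6.46 in XO and 19.0 ± 1.84 for XY (SD, n = 3 each), and its log2 fold changes were -0.32 ± 0.29 for XX against XO, -0.097 ± 0.29 for XX against XY and -0.22 ± 0.29 for XY against XO.

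The related genes Zar1 and Zar1l went opposite ways in XO1 and XY1. Zar1 was at 60.6, 48.3 and 64.0 normalized CPM in the XX pools, 19.7, 92.5 and 82.4 in the XO pools and 24.6, 52.1 and 81.2 in the XY pools. XO1 and XY1 lay below every XX pool. Zar1l was at 23.2, 23.5 and 20.1 normalized CPM in the XX pools, 31.6, 25.3 and 21.5 in the XO pools and 25.6, 18.6 and 20.2 in the XY pools. XO1 and XY1 held its highest levels. The genes lie far apart on the minus strand of the same chromosome, Zar1 at chr5:72576806-72581254 and Zar1l at chr5:150507055-150518164. Per kilobase of gene model, Zar1 exceeded Zar1l in 7 of 9 pools, up to 2.51 times, and was 0.390 times Zar1l in XO1 and 0.604 times in XY1. In undivided UMIs Zar1 was at 38 against 61 for Zar1l in XO1 and at 53 against 55 in XY1. With all 9 pools neither gene was called in any comparison, and for XX against XO Zar1 turned from -0.17 to 0.25 and Zar1l from -0.23 to 0.098 with TMM factors.

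Pabpc1l was the scarcest of the 10, with 4 to 38 UMIs a pool. Its level was 3.21, 7.70 and 11.3 normalized CPM in the XX pools, 4.14, 9.31 and 15.8 in the XO pools and 1.86, 4.56 and 11.5 in the XY pools. The gene lies at chr2:164025450-164050538 on the plus strand. In each genotype the pool numbered 1 was the lowest and the pool numbered 3 the highest. The log2 fold changes were -0.38 ± 0.70 for XX against XO, 0.28 ± 0.70 for XX against XY and -0.66 ± 0.71 for XY against XO, none of them past the threshold in the fit without the block.

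**Figure D2:**
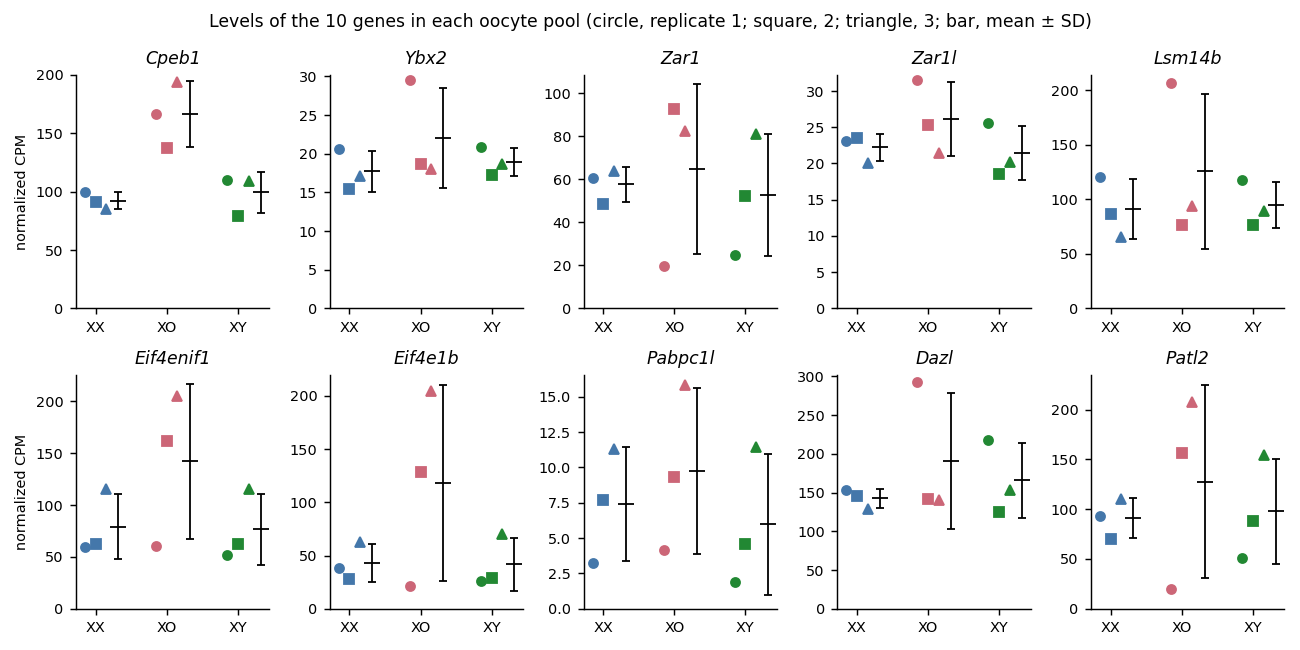
Normalized CPM (y axis, from 0) of the 10 genes in each pool, grouped by genotype, with a symbol for each replicate number and bars for mean ± SD. XO1 is the lowest XO pool for Patl2 and Zar1 (both 19.7) and Eif4e1b (21.7), and the highest for Dazl (293) and Lsm14b (207).

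The pools numbered 1 and 3 differed in opposite directions for 2 sets of these genes. Replicate 3 was above replicate 1 in all 3 genotypes for 5 genes, Zar1, Patl2, Eif4enif1, Eif4e1b and Pabpc1l, beside 33.5% of all tested genes. Replicate 1 was above replicate 3 in all 3 genotypes for 4 genes, Dazl, Ybx2, Zar1l and Lsm14b, beside 30.1% of all tested genes. Cpeb1 had mixed signs, and with TMM factors it joined the 4. Within XO, replicate 3 exceeded replicate 1 by 10.5-fold for Patl2, 9.40-fold for Eif4e1b, 4.19-fold for Zar1, 3.82-fold for Pabpc1l and 3.42-fold for Eif4enif1. Within XX the same folds were 1.18, 1.63, 1.06, 3.52 and 1.93. Replicate 1 exceeded replicate 3 within XO by 2.20-fold for Lsm14b, 2.09-fold for Dazl, 1.63-fold for Ybx2 and 1.47-fold for Zar1l. What the replicate numbers mark is not given in the sources used here.

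**Figure D3:**
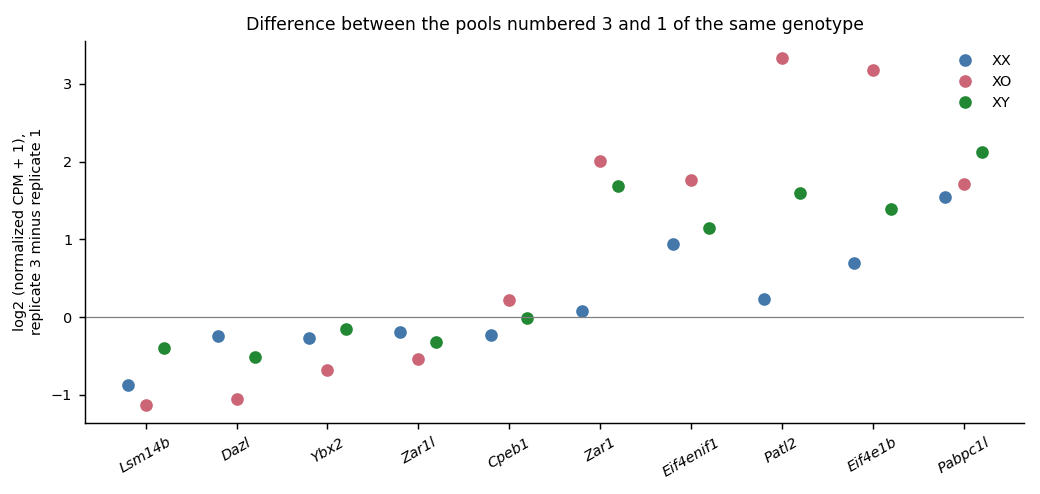
Difference of replicate 3 and replicate 1 of the same genotype on the scale of log2(normalized CPM + 1) (y axis) for the 10 genes, colored by genotype. Dazl, Ybx2, Zar1l and Lsm14b lie below 0 and Zar1, Patl2, Eif4enif1, Eif4e1b and Pabpc1l above 0 in all 3 genotypes, with the largest value, 3.33, for Patl2 in XO.

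GC content of the transcript moved with this difference over all genes. Across 10977 genes, which share libraries and are not independent replicates, Pearson's r between GC content and the difference of replicates 3 and 1 was 0.20 in XX, 0.41 in XO and 0.36 in XY. Within XO the median difference was -0.86 for genes of at most 40.5% GC and 1.34 for those of at least 54.6%, the 10% of genes at either end. The 10 genes did not line up by GC content. Dazl, at 37.0% GC, was higher in replicate 1 and Zar1, at 62.1%, in replicate 3, but Ybx2, the richest at 63.4%, was higher in replicate 1. The part of GC content in the genotype differences was not tested.

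The promoters of genes that moved apart between pools are shown as RefSeq windows of 300 bases that reach from upstream of the transcript start to just past it (GRCm38.p6), for Zar1 and Patl2, lowest in XO1, and for Dazl and Lsm14b, highest in XO1. Capitals mark CANNTG, the E-box core, which reads the same on both strands.
Zar1, chr5:72581035-72581334, minus strand: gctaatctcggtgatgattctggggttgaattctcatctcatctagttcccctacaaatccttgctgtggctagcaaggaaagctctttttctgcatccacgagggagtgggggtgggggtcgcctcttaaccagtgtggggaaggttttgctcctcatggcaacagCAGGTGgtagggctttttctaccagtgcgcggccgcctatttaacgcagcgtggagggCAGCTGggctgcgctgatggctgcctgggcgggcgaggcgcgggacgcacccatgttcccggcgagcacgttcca
Patl2, chr2:122186140-122186439, minus strand: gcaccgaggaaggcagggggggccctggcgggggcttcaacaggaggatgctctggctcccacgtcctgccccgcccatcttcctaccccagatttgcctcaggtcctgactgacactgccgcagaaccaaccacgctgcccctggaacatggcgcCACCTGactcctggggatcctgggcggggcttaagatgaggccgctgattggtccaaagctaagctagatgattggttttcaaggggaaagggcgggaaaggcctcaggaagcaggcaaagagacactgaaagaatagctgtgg
Dazl, chr17:50293571-50293870, minus strand: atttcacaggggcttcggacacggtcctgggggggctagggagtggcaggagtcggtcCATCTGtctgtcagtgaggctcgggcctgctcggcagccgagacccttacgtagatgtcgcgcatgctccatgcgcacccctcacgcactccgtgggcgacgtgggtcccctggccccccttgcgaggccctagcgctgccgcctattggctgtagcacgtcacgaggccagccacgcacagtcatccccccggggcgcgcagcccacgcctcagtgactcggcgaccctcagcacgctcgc
Lsm14b, chr2:180024737-180025036, plus strand: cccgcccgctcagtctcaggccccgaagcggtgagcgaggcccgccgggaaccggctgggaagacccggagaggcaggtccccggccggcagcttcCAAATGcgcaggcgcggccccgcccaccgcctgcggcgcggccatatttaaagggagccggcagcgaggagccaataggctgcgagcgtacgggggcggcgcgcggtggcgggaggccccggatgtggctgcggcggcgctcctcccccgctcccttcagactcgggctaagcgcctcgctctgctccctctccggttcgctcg
The Zar1 window holds 2 E-box cores and those of Patl2, Dazl and Lsm14b hold 1 each. Promoters of 9 of the 10 genes were in the table, with 13 windows, and 9 windows held an E-box core beside 72.3% of all 32851 windows. TAATTA or TAATTG, letters bound by the oocyte factor NOBOX, were found on either strand in 1 of the 13, that of Zar1l, and in 12.4% of all windows.

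Levels of different genes were compared per kilobase of gene model. Dazl had the highest mean in each genotype, at 47.9 ± 4.07 in XX, 64.3 ± 29.5 in XO and 55.6 ± 16.1 for XY (normalized CPM per kb, SD, n = 3 each). In XX it was followed by Zar1 (40.3), Patl2 (37.5), Lsm14b (35.5), Cpeb1 (29.6), Zar1l (24.8), Eif4enif1 (21.3), Eif4e1b (20.2), Ybx2 (10.6) and Pabpc1l (3.14). Since each molecule gives 1 UMI at its 5′ end whatever its length, the order of the undivided levels is given too. In it Dazl again came first and Cpeb1 followed in each genotype, with Cpeb1 at 92.0 normalized CPM in XX, and Zar1, at 57.6, stood below Patl2 (91.3), Lsm14b (91.0) and Eif4enif1 (79.2). Per kilobase in XO, Eif4e1b followed Dazl at 55.5 ± 43.1 and Cpeb1 came next at 53.4 ± 9.11. Of the 27 neighbouring pairs in the 3 orders, 6 were apart in all their pools per kilobase and 7 without the division, so most neighbours did not differ beyond their spread. Among all tested genes, the mean normalized CPM of Dazl stood at percentile 92.2, that of Cpeb1 at 88.9, Ybx2 at 53.3 and Pabpc1l at 26.0.

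Within gene families, the oocyte gene was not always the most abundant transcript per kilobase. Cpeb1 exceeded Cpeb2, Cpeb3 and Cpeb4 in 9 of 9 pools, by median ratios of 18.4, 6.30 and 8.22. The ratio of gene model lengths enters these values, at 2.27, 1.90 and 2.03 for Cpeb2, Cpeb3 and Cpeb4 over Cpeb1. Dazl exceeded Boll by a median of 22.5 times, Patl2 exceeded Patl1 by 16.8 times and Lsm14b exceeded Lsm14a by 1.69 times, each in 9 of 9 pools. Here the length ratio was 0.885 for Boll over Dazl, 1.73 for Patl1 over Patl2 and 1.15 for Lsm14a over Lsm14b. By contrast Eif4e, the general cap-binding gene, exceeded Eif4e1b in every pool, from 2.38 times in XO3 to 84.1 times in XO1. Both genes entered that range, since XO1 held the highest Eif4e, 4285 normalized CPM, and the lowest Eif4e1b. The division by length lowers these ratios, since the Eif4e model is 2.34 times as long. In undivided UMIs Eif4e was at 2015 against 362 for Eif4e1b in XO3 and at 8276 against 42 in XO1. Eif4e1b exceeded Eif4e2 in 9 of 9 pools and Eif4e3 in 2, XO2 and XO3. Without the division by length Eif4e1b lay below Eif4e2 in XX2, at 80 against 102 UMIs, and in XY2, at 88 against 112.

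Ybx3 and Ybx1 exceeded Ybx2 in 9 of 9 pools, by medians of 3.97 and 1.47 times. Among poly(A)-binding genes, Pabpc4 exceeded Pabpc1l in 9 of 9 pools, by a median of 16.4 times, and Pabpc1 in 8. Pabpc6 had 2 UMIs in all pools together. Of the other genes for proteins that bind the cap-binding factor, Eif4ebp1 and Eif4ebp3 had 8 and 18 UMIs in all, and Eif4enif1 exceeded Eif4ebp2 by a median of 22.1 times. The length ratio was 1.32 for Pabpc4 over Pabpc1l and 1.56 for Eif4ebp2 over Eif4enif1. Of the 14 relatives tested, Ybx1 was called lower in XX than in XO, at -0.82 ± 0.31 (edgeR, unadjusted p = 0.0255, adjusted p = 0.233), and not with TMM factors. Among all genes 16.7% were called lower in XX than in XO with spike-in factors.

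**Figure D4:**
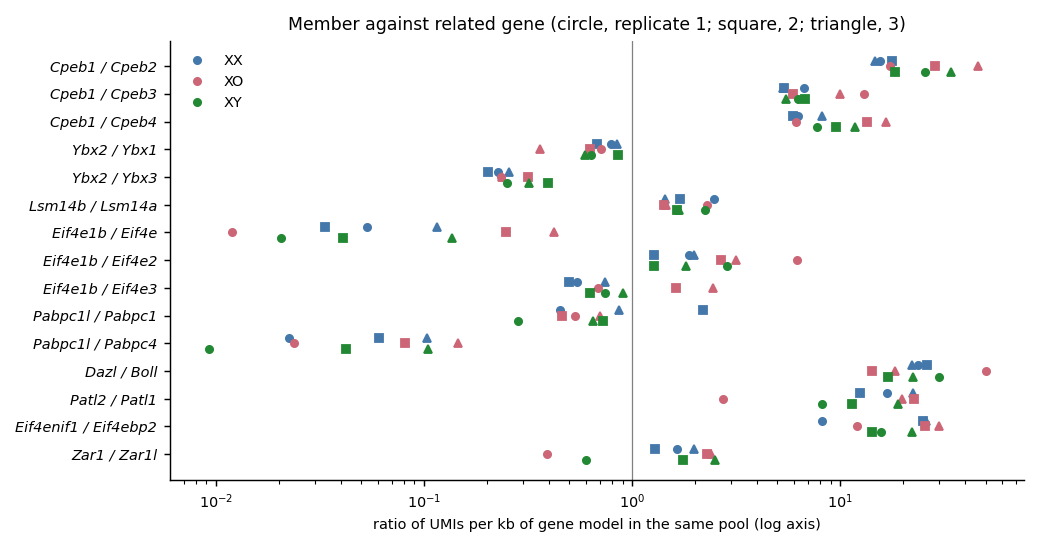
Ratio of each gene to a relative in UMIs per kb of gene model (x axis, log scale) in each pool, colored by genotype with a symbol for each replicate number. Eif4e1b lies below Eif4e in all 9 pools, from 0.0119 in XO1 to 0.421 in XO3, and Cpeb1 lies above Cpeb2, Cpeb3 and Cpeb4 in all pools.

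Of 29 further genes of mRNA masking, tail length and RNA binding, 25 were tested. For XX against XO 2 were called, both lower in XX, beside 16.7% of all genes called lower. Rbpms2, an RNA-binding protein gene, was at 13.5, 12.3 and 20.4 normalized CPM in XX and 22.8, 42.9 and 67.2 in XO pools, with each XO pool above each XX pool, and its log2 fold change was -1.52 ± 0.44 (edgeR, adjusted p = 0.203). Parn, the gene of a deadenylase, was at 6.06, 7.70 and 11.9 in XX and 9.32, 22.7 and 39.5 in XO pools, which overlapped, and its log2 fold change was -1.47 ± 0.54 (edgeR, adjusted p = 0.224). For XY against XO, Igf2bp2 and Larp4, both RNA-binding protein genes, were called lower in XY at -0.86 ± 0.37 and -0.68 ± 0.29 (edgeR, adjusted p = 0.498 and 0.494). Among all genes 8.24% were called lower in XY than in XO. None of the 25 was called by edgeR for XX against XY, beside 4.39% of all genes called lower and 1.41% higher in XX. The median log2 fold changes of the list were -0.43 for XX against XO, -0.16 for XX against XY and -0.29 for XY against XO, close to those of all genes. Without XO1 the calls were 10 of 25 for XX against XO and 11 of 25 for XY against XO, near the 36.9% and 32.1% of all genes called in that setting.

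Among 15 transcripts known for translational control in oocytes, 14 were tested, and 6 were called lower in XX than in XO, 5 lower in XY than in XO and 0 by edgeR for XX against XY, beside 16.7%, 8.24% and 4.39% of all genes called lower. Their median log2 fold change was -1.02 for XX against XO, -0.11 for XX against XY and -0.62 for XY against XO, beside -0.46, -0.19 and -0.30 for all genes. This list was chosen with earlier results of these data known. Whether stored transcripts differ from all genes was therefore not tested. H1foo, the oocyte linker histone gene, was at 96.9, 85.4 and 155 normalized CPM in the XX pools, 15.5, 856 and 2576 in the XO pools and 30.2, 86.3 and 175 in the XY pools. XO1 was the lowest of all pools and XO3 the highest, and the log2 fold change was -3.35 ± 1.29 for XX against XO and -3.56 ± 1.30 for XY against XO (edgeR, adjusted p = 0.236 and 0.485). Tex19.1 had the same extremes, 8.80 in XO1 and 299 in XO3, with log2 fold changes of -2.76 ± 0.99 and -2.63 ± 0.98.

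Gdf9, an oocyte growth factor gene, was at 252, 272 and 319 normalized CPM in the XX pools, 339, 869 and 2432 in the XO pools and 234, 264 and 350.2 in the XY pools. Each XO pool lay above each XX pool, and XO1 lay within the range of the XY pools. Its log2 fold changes were -2.11 ± 0.62 and -2.10 ± 0.62 (edgeR, adjusted p = 0.203 and 0.485). The paper instead chose Gdf9 as a gene that did not differ between the genotypes in these RNA-Seq data. By qRT-PCR the paper also found no Gdf9 difference between genotypes in oocytes of the size pooled here or larger. With sva covariates Gdf9 was not called for XX against XO and was called in the other comparisons. The cause of the disagreement with the paper was not tested. Plat, the gene of tissue plasminogen activator, was at 207, 217 and 251 normalized CPM in the XX pools, 312, 469 and 1107 in the XO pools and 214, 163 and 212 in the XY pools. All XO pools exceeded all others, with log2 fold changes of -1.48 ± 0.46 and -1.68 ± 0.46 (edgeR, adjusted p = 0.203 and 0.485). Btg4, an adaptor of maternal mRNA decay, was at 179, 176 and 124 normalized CPM in the XX pools, 268, 269.9 and 492 in the XO pools and 199, 176 and 176 in the XY pools, again with each XO pool above all others, and its log2 fold changes were -1.11 ± 0.34 and -0.90 ± 0.33. Orc6, of the origin recognition complex, was called for XX against XO alone, at -0.88 ± 0.33; whether this differs from XY against XO was not tested. Plat, Btg4 and Orc6 are named beyond the rule, after their values were seen. Mos, the kinase gene, had 1 to 12 UMIs a pool and did not pass the filter.

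With TMM factors 5 stored transcripts were called for XX against XO and 4 for XY against XO, beside 12.2% and 9.01% of all genes. With sva covariates the counts were 2 and 6, and 4 were called for XX against XY, beside 16.5%, 23.0% and 19.9% of all genes. Without XO1 the counts were 10 and 9 of 15 tested, beside 36.9% and 32.1% of all genes.

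**Figure D5:**
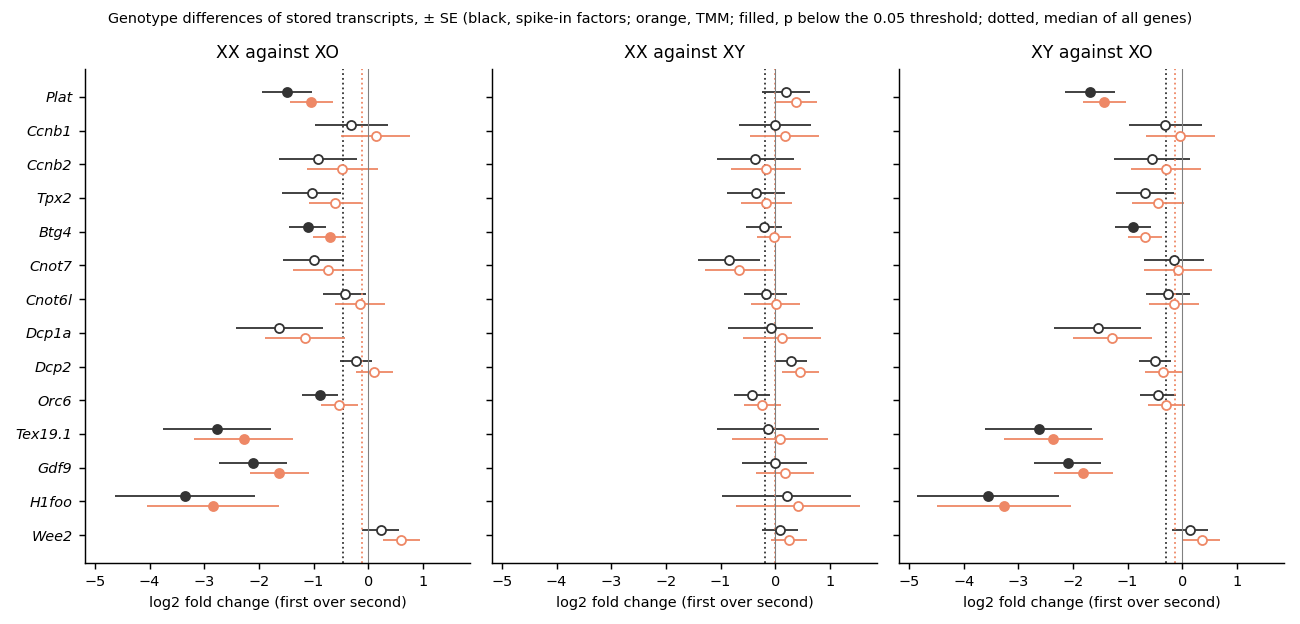
Log2 fold changes (x axis, first genotype over second) of the 14 tested stored transcripts with their SE from edgeR for spike-in and TMM factors, with filled points where the unadjusted p passed 0.05 and a dotted line at the median of all genes. H1foo, Tex19.1, Gdf9 and Plat are filled under both scalings in the comparisons with XO, and none is filled for XX against XY.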

How the data were processed

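Poly(A) RNA of 9 pools of 30 oocytes was sequenced by Smart-seq3. The authors aligned reads to GRCm38 with HISAT2 and deposited UMI counts of reads with 5′ exons per Gencode gene. They also deposited a normalized signal, here called normalized CPM, which equals CPM, the count over the gene total, divided by a TMM factor computed from ERCC RNAs, and a log2 matrix from which the authors had regressed batch effects with cleaningY of jaffelab. The spike-in factor is relative to the spike-in total, so RNA per oocyte is not measured.

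Counts were tested with edgeR 4.0.16 (quasi-likelihood F test, two-sided, all 9 samples, 1 mean per genotype, spike-in factors, filterByExpr) in R 4.3.3, and a gene was called at an unadjusted p of 0.05, the threshold of the study. Adjusted p-values are by Benjamini and Hochberg over 10993 genes. The study itself tested with limma and had surrogate variables of sva as covariates in its model, so the main fit here shares its threshold but not its test. The 3 comparisons share samples. Alternatives were TMM factors, DESeq2 1.42.0, no filter, only the 6 samples compared, the replicate number as a block, sva 3.50.0 covariates and leaving out each pool. Same-numbered XY and XO pools deviated together (correlations 0.830, 0.278 and 0.773), which for XX against XO (0.468, -0.447 and 0.679) and XX against XY (0.435, -0.060 and 0.726) was not so for every number. The XO column without a number is replicate 1 per the labels. Scripts were tested on simulated data. Members and lists were chosen with earlier results of these data known. All members are named, with up to 3 called genes of each direction and comparison for the lists. P-values set a genotype difference against the spread between pools, which was estimated with information shared across genes.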

Additional observations from a re-analysis of the deposited data

How the results depend on the processing

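The number of the 10 genes called for XX against XO, 1, became 2 with DESeq2 (21.2% of all genes called), 2 with the replicate block (23.0%), 0 with TMM factors (12.2%), 5 without XO1 and XY1 (41.7%), and 1 to 4 when 1 pool at a time was left out. For XY against XO the number, 1, became 2 with DESeq2 (12.0% of all genes), 2 without the filter (9.75%), 0 with only the 6 samples compared (5.24%), 4 with the replicate block (16.6%), 4 with sva covariates (23.0%), 0 with TMM factors (9.01%), 3 with TMM factors and the block (15.9%), 3 without XO1 and XY1 (27.8%), and 0 to 3 when 1 pool at a time was left out. It was 0 without XO3 or XY2, and 3 without XO1 or XY3. For XX against XY it was 0, except 1 with sva covariates, Eif4e1b at 0.45 (19.9% of all genes). Leaving out the filter lost Cpeb1 in both comparisons with XO and called Eif4e1b in both. Reversed log2 fold changes with sva covariates were for XX against XO Eif4e1b at 0.031, Pabpc1l at 0.076, Patl2 at 0.77, Zar1 at 0.28; for XX against XY Cpeb1 at 0.19, Lsm14b at 0.23, Patl2 at 0.16, Ybx2 at 0.00529; for XY against XO Patl2 at 0.61, Zar1 at 0.15. With TMM factors they were for XX against XO Pabpc1l at 0.050, Zar1 at 0.25, Zar1l at 0.098; for XX against XY Cpeb1 at 0.079, Lsm14b at 0.12, Patl2 at 0.095, Ybx2 at 0.077. With the pool number as replicate block they were for XX against XO Zar1 at 0.092; for XX against XY Patl2 at 0.15, and with the block and TMM factors for XY against XO Patl2 at 0.027. Leaving out 1 pool at a time turned the direction of some genes that were not called in the main fit. For XX against XO these were Dazl (-0.61 to 0.020), Lsm14b (-0.72 to 0.10), Pabpc1l (-0.83 to 0.14), Patl2 (-0.99 to 0.055), Zar1 (-0.60 to 0.18). For XX against XY these were Dazl (-0.38 to 0.034), Eif4e1b (-0.33 to 0.66), Eif4enif1 (-0.33 to 0.48), Lsm14b (-0.31 to 0.13), Pabpc1l (-0.16 to 1.16), Patl2 (-0.41 to 0.39), Zar1 (-0.21 to 0.58), Zar1l (-0.039 to 0.20). For XY against XO these were Dazl (-0.46 to 0.23), Lsm14b (-0.67 to 0.16), Patl2 (-0.89 to 0.16), Ybx2 (-0.34 to 0.044), Zar1 (-0.75 to 0.050). The causes were not tested.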
